A study of Mus musculus with 12 samples.

Results

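Livers of female mice descended from Khdc3-null grandmothers were compared directly with livers of female mice descended from Khdc3-null grandfathers. The WTMM mice had a Khdc3-null grandmother on the mother's side and on the father's side, the WTPP mice had a Khdc3-null grandfather on each side, and the WT mice had wild-type ancestors only. Every animal in the 3 groups was itself wild type at Khdc3. The comparison used the 4 WTMM and 4 WTPP libraries, 8 of the 12 of the series, and every gene with a mean normalized count of at least 10 over the 12 libraries, 14473 of the 25069 genes in the deposited table. The 4 WT libraries shared the fit, and their mean ± SD is given as context for some of the genes, not for all of those with the widest gaps. The labels give the sex, the tissue, liver, and the cell type, hepatocyte, and they name an extraction kit for lipid-rich tissue. They give no age, strain, litter or collection time, and they do not say which mice shared parents. The p-values therefore measure only the spread between these libraries. That spread may be partly technical, and the animals may be related.

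Khdc3 encodes a protein of the subcortical maternal complex of the oocyte, which the egg stores and the early embryo uses. The mouse liver has many sex-biased genes, whose level follows the pattern of growth hormone secretion. In males the pulsed pattern goes with high major urinary proteins and Hsd3b5, and in females the steadier pattern goes with high Cyp2b, Sult2a and Cyp17a1 transcripts. Other large hepatic programmes follow the nuclear receptors CAR and PXR, which respond to foreign compounds, the lipid regulators SREBP1 and SREBP2, feeding and the time of day.

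Libraries held 25070718 to 33924490 reads assigned to genes in WTMM and 26172914 to 32612352 in WTPP. Khdc3 had 0, 0, 3.41 and 0 in the WTMM libraries and 0, 0, 1.11 and 1.83 in the WTPP libraries, as normalized counts, the unit of every level below, and was too low to test. Xist, the RNA of the inactive X chromosome, had 20989, 24482, 24346 and 20197 in the WTMM libraries and 25877, 24889, 31725 and 27497 in the WTPP libraries, and all 12 mice are labelled female. The labelled cell type did not stand alone. The 10 hepatocyte identity markers, led by albumin, summed to 3088379 to 3549969.7 in WTMM and 3665454 to 4044006 in WTPP. The 19 sinusoidal endothelial markers summed to 24979.6 to 27382 in WTMM and 26965 to 27845 in WTPP. The 15 Kupffer cell markers summed to 16570.4 to 21249.8 in WTMM and 16319.9 to 21699 in WTPP. The 20 stellate and matrix markers summed to 18116 to 22161 in WTMM and 22918 to 27021 in WTPP. The 14 biliary markers summed to 6011 to 7581 in WTMM and 8289 to 9306 in WTPP. The hepatocyte, stellate and biliary sums were each lower in WTMM without overlap between the groups. So was the mesothelial sum, at 98.6 to 240 in WTMM and 254 to 491 in WTPP. Other sums were higher in WTMM without overlap. The pericentral hepatocyte markers summed to 355148 to 386662 in WTMM and 260725 to 315685 in WTPP. The pancreatic acinar markers summed to 1338 to 1741 in WTMM and 491 to 1262 in WTPP. The part of these sums in the results was not tested. The hepatocyte sum mostly followed albumin, which averaged 2269475 in WTMM and 2815843 in WTPP. Of the 10 hepatocyte markers, 7 had a positive log2 fold change of WTMM over WTPP, with a median of 0.10. In such bulk tissue, fewer cells of a type and less RNA per cell cannot be told apart.

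The WTPP libraries did not form a single cluster. On the first principal component of the 8 libraries, which held 33.6% of the variance, WTMM scored 18.96 to 37.7 and WTPP -28.7 to -21.4. On the second, with 18.1%, WTPP 2 and 3 scored 31.3 and 18.98, WTPP 6 and 7 scored -33.1 and -20.4, and the 4 WTMM libraries lay between -1.64 and 2.995. Circadian genes were among those that split WTPP. Arntl, which encodes the activator BMAL1, had 62.7, 90.6, 119 and 52.2 in the WTMM libraries and 933, 541, 38.8 and 32 in the WTPP libraries. Dbp, a clock-driven output factor, had 4649, 3716, 3667 and 4156 in the WTMM libraries and 140.3, 1316, 4930.4 and 6545 in the WTPP libraries. WTPP 2 and 3 were thus above the WTMM range for Arntl and below it for Dbp, while WTPP 6 and 7 were on the other side of it for both. Of the 19 clock genes tested, WTPP 2 and 3 both lay below WTPP 6 and 7 for 13 and both above for 5, and 1 overlapped. The median range over 4 libraries was 0.56 on the log2 scale in WTMM and 1.79 in WTPP for these 19 genes, against 0.35 in WTMM and 0.42 in WTPP over all tested genes. None of the 19 passed the limma test between lineages, and their median log2 fold change was 0.23. An unadjusted p under 0.05 was found for 1 of them, against 2687 of all 14473 tested genes. The labels give no collection time, and the part of this split in the results below was not tested. Counts over all genes and for the larger lists are therefore also given without each WTPP pair, an alternative chosen after the data were seen.

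**Figure D1:**
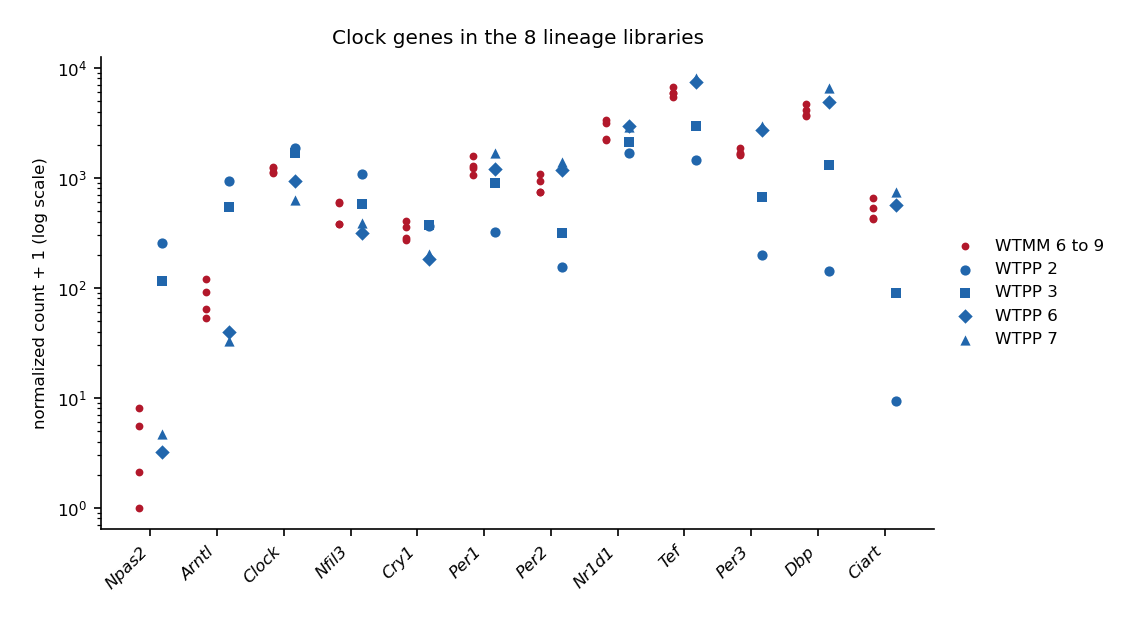
Normalized counts plus 1 on a log axis for 12 clock genes, 1 point per library, with the 4 WTMM libraries in red and the 4 WTPP libraries in blue with a symbol each. WTPP 2 and 3 sit above the other libraries for Npas2, Arntl and Clock and below them for the Per genes, Tef, Dbp and Ciart.

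Loci that catch ribosomal RNA reads also differed. Gm42418, which overlaps a ribosomal RNA repeat, had 278126, 406241, 358169.9 and 272122 in the WTMM libraries and 153895, 227033, 132309 and 82442 in the WTPP libraries (log2 fold change 1.21 ± 0.31, adjusted p = 0.0438). Lars2, a mitochondrial leucyl-tRNA synthetase gene with a stretch like ribosomal RNA, had 36218, 49934, 48656 and 32466 in the WTMM libraries and 20618, 26095, 18549 and 12565 in the WTPP libraries (log2 fold change 1.13 ± 0.25, adjusted p = 0.0243). No WTPP library reached the lowest WTMM library at either locus. The call of Gm42418 was lost without WT 116, 118 or 120, WTMM 6, 7, 8 or 9, WTPP 2, 6 or 7, or WTPP 6 and 7 together and in 4 other settings (adjusted p = 0.0545 to 0.231) and that of Lars2 without WTMM 7 or 8, WTPP 6 or 7, or WTPP 6 and 7 together (adjusted p = 0.0525 to 0.118). Their part in other results was not tested.

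Of the 14473 genes, 331 (2.29%) were higher and 272 (1.88%) lower in WTMM than in WTPP, 603 (4.17%) in all, by limma with Benjamini-Hochberg adjustment at 0.05. Every adjusted p of a gene below comes from that fit, and every fold change is WTMM over WTPP on the log2(normalized count + 1) scale with its standard error. Differences of at least 2-fold were found for 94 genes that were higher and 105 that were lower in WTMM. The 4 libraries of WTMM did not overlap the 4 of WTPP for 579 of the 603 genes, beside 13.2% of all tested genes. Protein-coding genes made up 539 of the 603. The median log2 fold change over all tested genes was -0.00037.

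The number of calls rested on single libraries. Leaving out WTMM 9 left 266 calls, leaving out WTPP 3 left 343, WTMM 7 355, WTMM 6 358 and WTMM 8 397. Without WTPP 6 the higher and lower calls were 245 and 163. Of the 603 genes, 219 kept their call whichever of the 12 libraries was left out, and 138 kept it in all 26 alternatives tried. None of the 603 changed direction in any of them. Without WTPP 2 and 3 there were 514 calls, 298 of them among the 603, and without WTPP 6 and 7 there were 668, 321 of them among the 603. A gene named below as past the test with no remark kept its call in every alternative that tested it.

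**Figure D2:**
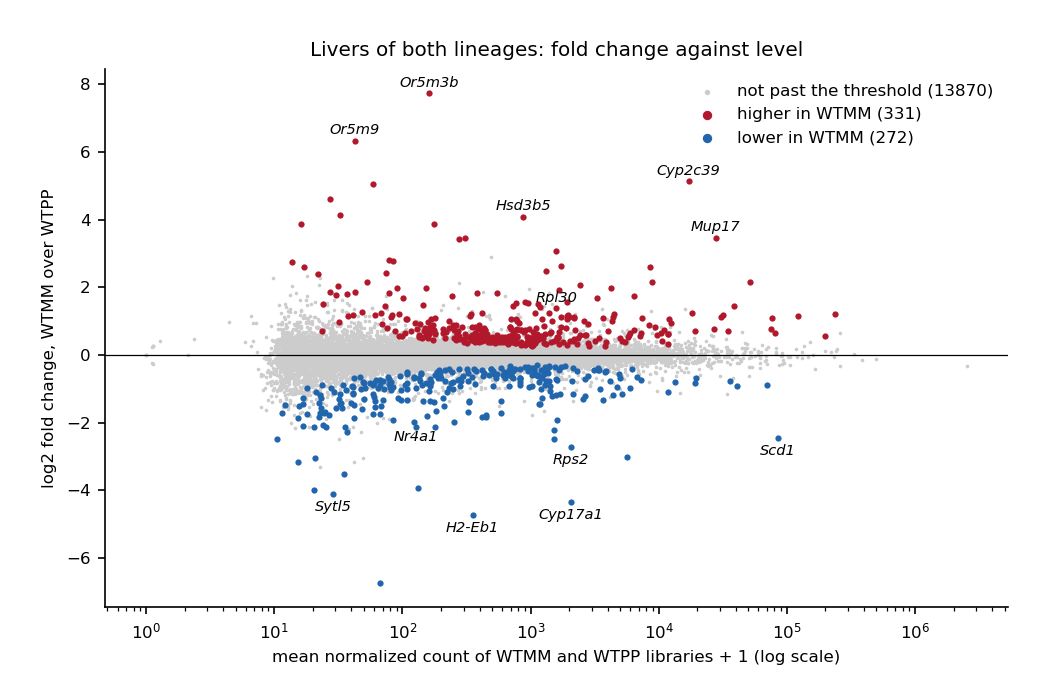
Log2 fold change of WTMM over WTPP against the mean normalized count of the 8 libraries plus 1 on a log axis, 1 point per tested gene. The 331 genes higher in WTMM are red and the 272 lower are blue, and most lie within 2 units of 0 on the log2 scale.

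Some of the largest differences were near-complete switches. Or5m3b, a gene of the olfactory receptor family, had 334, 205, 233 and 514 in the WTMM libraries and 3.09, 0, 0 and 0 in the WTPP libraries. The 4 WTMM libraries held 1257 reads and the 4 WTPP libraries 3, a ratio of 437 with an exact 95% interval of 149 to 2124 that covers counting error only (log2 fold change 7.73 ± 0.55, adjusted p = 5.71e-06). Its neighbour Or5m9 had 92.9, 59, 61.4 and 117 in the WTMM libraries and 0 in each WTPP library, which with a floor of 3 reads over the WTPP group is at least 112-fold higher (adjusted p = 4.08e-06). WT livers averaged 1.23 ± 1.34 for Or5m3b and 0 for Or5m9 (SD, n = 4). The pair lies side by side on chromosome 2, and reads may be split between them by the counting. How alike their sequences are was not tested.

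Trhde, which encodes the ectoenzyme that degrades thyrotropin-releasing hormone, had 399.7, 498, 254 and 171 in the WTMM libraries and 34, 15, 29.9 and 10.05 in the WTPP libraries (log2 fold change 3.87 ± 0.62, adjusted p = 0.00418). Every WTMM library was above every WTPP library, and WT averaged 24.2 ± 15.5. Itga6, the integrin alpha chain that binds laminin, had 235, 179.5, 231 and 209 in the WTMM libraries and 75.3, 57.5, 79.8 and 93.2 in the WTPP libraries (log2 fold change 1.48 ± 0.16, adjusted p = 0.000248). Rpl30, a protein of the large ribosomal subunit, had 1880.0, 2498, 2455 and 2352 in the WTMM libraries and 852, 892, 763 and 1030.4 in the WTPP libraries (log2 fold change 1.38 ± 0.11, adjusted p = 1.98e-05). For both, WT levels, 80.7 ± 7.08 and 998 ± 76.5, lay near the WTPP range. Acsm2, a medium-chain acyl-CoA synthetase gene, had 206, 289.5, 223 and 251 in the WTMM libraries and 81.5, 70.8, 64.3 and 34.7 in the WTPP libraries (log2 fold change 1.99 ± 0.23, adjusted p = 0.000612), and here WT, at 118 ± 20.01, lay between the lineages. Ces4a, a carboxylesterase gene, was also higher in WTMM, by 2.41 ± 0.51 on the log2 scale (adjusted p = 0.0192), but lost its call without WTPP 6 and 7 together and in 1 other setting (adjusted p = 0.0518 to 0.0631).

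On the other side, Cyp17a1, the steroid hydroxylase and lyase, and H2-Eb1, a class II histocompatibility chain, had the most negative fold changes of the named genes and are described with their pathways. Sytl5, a synaptotagmin-like vesicle protein gene on the X chromosome, had 10.1, 2.64, 0 and 0.986 in the WTMM libraries and 54.7, 55.8, 63.2 and 35.6 in the WTPP libraries (log2 fold change -4.13 ± 0.59, adjusted p = 0.00201). Its WTMM libraries were all under 10.2 and its WTPP libraries all above 35. Serpinb1a, an intracellular inhibitor of serine proteases, had 84, 88, 182 and 72.9 in the WTMM libraries and 344, 396, 541 and 322 in the WTPP libraries (log2 fold change -1.97 ± 0.35, adjusted p = 0.00735). Nr4a1, an orphan nuclear receptor induced as an immediate early gene, had 51.5, 47.5, 40.9 and 37.5 in the WTMM libraries and 104, 213, 262 and 260.3 in the WTPP libraries (log2 fold change -2.14 ± 0.25, adjusted p = 0.000716). WT Nr4a1, at 36.2 ± 3.71, was close to WTMM, and it was the 1 member of 20 immediate early genes tested that passed. Lipo3, a gene of the acid lipase family, was lower in WTMM, at -2.27 ± 0.58 on the log2 scale (adjusted p = 0.0431) and lost its call without WT 116 or 118, WTMM 6, 7 or 8, WTPP 2, 3, 6 or 7, WTPP 2 and 3 together, or WTPP 6 and 7 together and in 5 other settings (adjusted p = 0.0509 to 0.163).

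**Figure D3:**
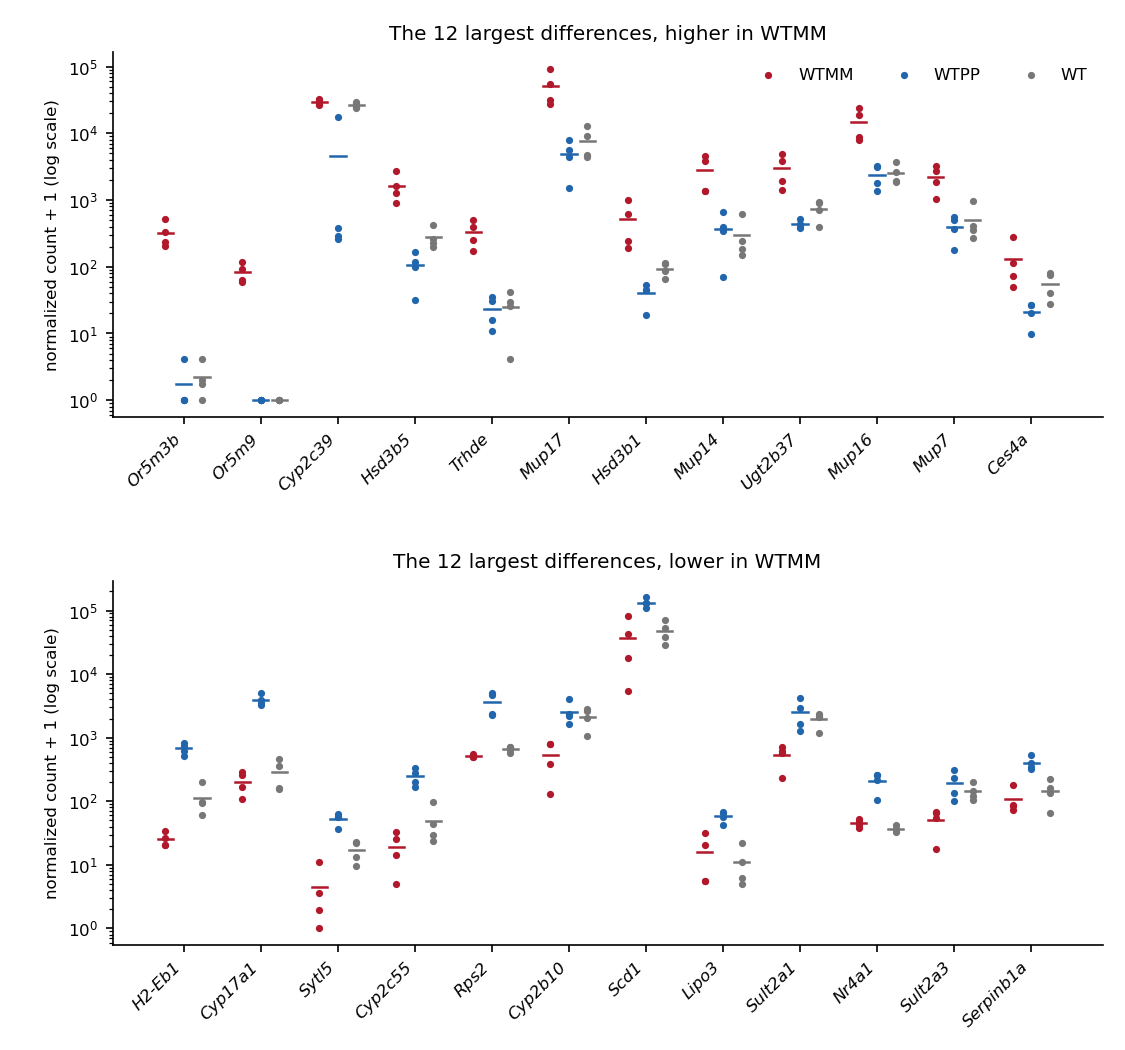
Normalized counts plus 1 on a log axis for the 12 genes with the largest positive (top) and the 12 with the largest negative (bottom) log2 fold change among called genes chosen for no overlap and a higher group that averages 50 or more, 1 point per library and a bar at each group's mean, with WTMM in red, WTPP in blue and WT in grey. The absence of overlap between WTMM and WTPP follows from that choice. WT lies nearer to WTPP for some genes, such as Or5m3b, and nearer to WTMM for others, such as Cyp17a1.

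Many genes that are known to be higher in male than in female mouse liver were higher in WTMM. Of the 20 male-predominant genes tested, 10 were higher and 0 were lower in WTMM, against 2.29% and 1.88% of all genes, the background for every list count below, and their median log2 fold change was 0.76. Hsd3b5, a hepatic 3-ketosteroid reductase of the hydroxysteroid dehydrogenase family and a standard male marker, had 889, 2755, 1291 and 1624 in the WTMM libraries and 99, 167, 117 and 31.1 in the WTPP libraries (log2 fold change 4.07 ± 0.44, adjusted p = 0.000329). The lowest WTMM library was above 5 times the highest WTPP library, and WT averaged 275 ± 97.2. Cyp7b1, an oxysterol hydroxylase, had 3492, 6537, 3018 and 7194 in the WTMM libraries and 1765, 1716, 1366 and 1125 in the WTPP libraries (log2 fold change 1.68 ± 0.25, adjusted p = 0.00282). Slco1a1, an organic anion transporter, was higher by 0.69 ± 0.15 on the log2 scale (adjusted p = 0.025), though its call was lost without WTMM 7 or 9, WTPP 2, 3 or 7, WTPP 2 and 3 together, or WTPP 6 and 7 together (adjusted p = 0.0522 to 0.101). A list with 1 call among 20 or more genes has a share near or below the 4.17% over all genes. Over the alternatives 5 to 11 of the 20 were higher and none was lower. Without WTPP 6 and 7 there were 6, and without WTPP 2 and 3 there were 9.

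The major urinary proteins, pheromone carriers that male liver secretes in quantity, overlap with that list. They make up 8 of its 20 tested genes and 6 of its 10 calls, and 4 of the 12 other male-predominant genes were called, with a median of 0.29. Of 22 tested, 13 were higher and 0 were lower in WTMM, with a median log2 fold change of 1.46, and 7 to 14 were higher over the alternatives, with 7 when WTPP 6 and 7 were left out and 12 when WTPP 2 and 3 were. Mup17 had 31217, 53947, 27296 and 91658 in the WTMM libraries and 7906, 5644, 4372 and 1511 in the WTPP libraries (log2 fold change 3.45 ± 0.50, adjusted p = 0.00238). Mup16 had 8837, 18712, 7915 and 24018 in the WTMM libraries and 3127, 3196, 1767 and 1357 in the WTPP libraries (log2 fold change 2.59 ± 0.37, adjusted p = 0.00214). Mup18 had 49346, 61974, 41193 and 74094 in the WTMM libraries and 24116, 17189, 18314 and 21631 in the WTPP libraries (log2 fold change 1.46 ± 0.20, adjusted p = 0.00164). For each of the 3, WTMM 7 and 9 were the highest libraries and no WTPP library reached the lowest WTMM library. Mup7, at 2.49 ± 0.44, Mup6, at 1.16 ± 0.20, and Mup5, at 0.70 ± 0.09, also passed on the same scale, with adjusted p = 0.00727, 0.00722 and 0.00131. Mup14, at 3.07 ± 0.63 (adjusted p = 0.0173), lost its call without WTMM 7 or 9, or WTPP 6 and 7 together and in 1 other setting (adjusted p = 0.0509 to 0.0609).

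Mup genes are near-identical copies, so that their reads may be shared among them and single members are uncertain. The promoters of Mup17 and Mup18, whose transcripts moved together, are shown with the letters TATAA in capitals. They come from RefSeq on GRCm38.p6 and run from 250 bases before to 50 after the annotated start, at chr4:61595783-61596082 on the minus strand and chr4:61674045-61674344 on the minus strand.
Mup17: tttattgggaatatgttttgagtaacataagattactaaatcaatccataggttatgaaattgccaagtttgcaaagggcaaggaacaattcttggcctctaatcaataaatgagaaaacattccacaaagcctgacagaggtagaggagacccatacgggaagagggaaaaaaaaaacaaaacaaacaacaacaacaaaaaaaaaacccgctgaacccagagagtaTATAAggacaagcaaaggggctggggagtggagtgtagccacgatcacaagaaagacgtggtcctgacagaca
Mup18: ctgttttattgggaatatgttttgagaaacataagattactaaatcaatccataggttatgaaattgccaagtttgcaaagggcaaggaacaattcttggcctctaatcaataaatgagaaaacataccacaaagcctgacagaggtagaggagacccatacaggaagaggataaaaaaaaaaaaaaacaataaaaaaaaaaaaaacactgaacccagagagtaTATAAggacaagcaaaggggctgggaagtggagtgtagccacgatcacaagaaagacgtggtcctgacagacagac
RefSeq promoters matched 14 of the 22 Mup genes, and 13 of the 14 hold TATAA or its reverse complement TTATA. That is against 28.0% of all 27025 genes with a promoter. The longest identical run that the Mup17 promoter shares with each of the 13 others was 26 to 178 bases, with a median of 72. The letters TTCNNNGAA, the core that STAT5 binds, were in the promoters of none of the 14 genes and of 9.55% of all genes.

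Genes higher in female liver went in both directions. Of 26 female-predominant genes tested, 2 were higher and 6 were lower in WTMM, and the list's median was 0.02. The 6 lower ones were Cyp17a1, Cyp2b10, Sult2a1, Sult2a2, Sult2a5 and Atp6v0d2. The 2 higher ones were Cux2 and Cyp2c40. Cux2, a female-specific repressor of male genes, had 2056, 1604, 1532 and 1422 in the WTMM libraries and 793, 243, 807 and 685 in the WTPP libraries (log2 fold change 1.52 ± 0.32, adjusted p = 0.0212), and its call was lost without WTMM 6 (adjusted p = 0.0579). Cyp2c40 lost its call without WT 116, 118 or 120, WTMM 7, 8 or 9, WTPP 2, 6 or 7, or WTPP 6 and 7 together and in 4 other settings (adjusted p = 0.0504 to 0.189), Sult2a2 without WTPP 3, 6 or 7, WTPP 2 and 3 together, or WTPP 6 and 7 together and in 3 other settings (adjusted p = 0.0516 to 0.127) and Atp6v0d2, a proton pump subunit gene, without WTMM 6, 7, 8 or 9, WTPP 3 or 6, or WTPP 6 and 7 together and in 4 other settings (adjusted p = 0.0502 to 0.104). Without WTPP 2 and 3 the list held 2 higher and 4 lower members, and without WTPP 6 and 7 it held 5 higher and 3 lower. The growth hormone axis itself gave 1 call of 19 tested. Igfals, which encodes the acid-labile subunit that holds IGF1 in serum, had 5719, 6859, 6098 and 6143 in the WTMM libraries and 4954, 4377, 5005 and 4517 in the WTPP libraries (log2 fold change 0.40 ± 0.10, adjusted p = 0.0401), and lost its call without WT 118, WTMM 6, 7, 8 or 9, WTPP 2, 3, 6 or 7, WTPP 2 and 3 together, or WTPP 6 and 7 together and in 2 other settings (adjusted p = 0.0573 to 0.132).

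Steroid-metabolizing enzymes held some of the widest gaps between lineages. Of 20 tested, 2 were higher and 2 were lower in WTMM, and without WTPP 6 and 7, 3 were higher and 2 lower. Cyp17a1, which makes androgen precursors in steroidogenic tissue, had 106, 284, 165 and 258 in the WTMM libraries and 3462, 4971, 3936 and 3315 in the WTPP libraries (log2 fold change -4.35 ± 0.36, adjusted p = 2.04e-05). The highest WTMM library lay far under the lowest WTPP library, and WT, at 285 ± 153, was at the WTMM level. Hsd3b2, like Hsd3b5 of the hydroxysteroid dehydrogenase family, had 2463, 2960.3, 2148 and 2999 in the WTMM libraries and 1179, 1567, 991 and 1015 in the WTPP libraries (log2 fold change 1.16 ± 0.18, adjusted p = 0.00332). Hsd3b1, which was on no list and was named for its size, was also higher in WTMM, by 3.44 ± 0.46 on the log2 scale (adjusted p = 0.00146). These 3 genes are close copies, and the split of reads among them is uncertain.

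Some sulfotransferases of the Sult2a family, which sulfate hydroxysteroids and bile acids, were lower in WTMM. Of 16 sulfotransferases tested, 1 was higher and 5 were lower in WTMM, and the 5 lower ones were Sult2a1, Sult2a2, Sult2a3, Sult2a5 and Sult2a6, near-copies on chromosome 7. The lower members numbered 4 without WTPP 2 and 3, 1 without WTPP 6 and 7 and 2 without WTPP 6. Sult2a1 had 608, 576, 705 and 231 in the WTMM libraries and 1284, 1662, 2984 and 4182 in the WTPP libraries (log2 fold change -2.21 ± 0.39, adjusted p = 0.00735). Sult2a5 had 249, 238, 296 and 73.9 in the WTMM libraries and 436, 579.7, 730.5 and 960.1 in the WTPP libraries (log2 fold change -1.77 ± 0.35, adjusted p = 0.0145). WTMM 9 was the lowest library for both and WTPP 7 the highest, with no overlap. The call of Sult2a5 was lost without WTPP 6 and 7 together and in 1 other setting (adjusted p = 0.0508 to 0.084), that of Sult2a3 without WTPP 6 or 7, or WTPP 6 and 7 together and in 1 other setting (adjusted p = 0.0519 to 0.126) and that of Sult2a6 without WTPP 3, 6 or 7, or WTPP 6 and 7 together and in 3 other settings (adjusted p = 0.054 to 0.136). The 1 higher member was Sult5a1, with 1819.5, 2446, 1941 and 1599.8 in the WTMM libraries and 945, 1064, 1127 and 746 in the WTPP libraries (log2 fold change 1.01 ± 0.15, adjusted p = 0.00282).

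Some glucuronidation genes were higher in WTMM. Of 16 UDP-glucuronosyltransferases tested, 3 were higher and 0 were lower in WTMM, 10 had a positive value, and the median was 0.13. There were 2 higher without WTPP 2 and 3, and 3 without WTPP 6 and 7. Ugt2b37 had 1419, 4946, 1906 and 3790.0 in the WTMM libraries and 518, 379.7, 441 and 390.1 in the WTPP libraries (log2 fold change 2.63 ± 0.35, adjusted p = 0.00131), and Ugt2b1 had 19745, 28776, 21367 and 25195 in the WTMM libraries and 13249, 16332, 15661 and 12363 in the WTPP libraries (log2 fold change 0.72 ± 0.14, adjusted p = 0.0114). Both had every WTMM library above every WTPP library. Ugt2b38, at 1.85 ± 0.47 on the log2 scale (adjusted p = 0.0408), overlapped between groups and lost its call without WT 120, WTMM 6, 7 or 9, WTPP 2, 3 or 6, or WTPP 2 and 3 together and in 4 other settings (adjusted p = 0.0513 to 0.173). Among 30 bile acid genes tested, 2 were higher and 1 was lower in WTMM. Besides Cyp7b1 and Slco1a1, Slc51b, a subunit of the basolateral bile acid exporter, had 26.9, 38.7, 23.9 and 21.7 in the WTMM libraries and 60.8, 84.1, 80.9 and 53 in the WTPP libraries (log2 fold change -1.30 ± 0.24, adjusted p = 0.00944).

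Some cytochromes of the CAR and PXR programme were lower in WTMM. Of 26 receptors and targets tested, 0 were higher and 6 were lower in WTMM, with a list median of -0.20, and 0 to 2 were higher and 4 to 6 lower over the alternatives. The count was 0 higher and 4 lower without WTPP 2 and 3, and 2 higher and 5 lower without WTPP 6 and 7. Cyp2c29, Cyp2c37, Cyp2c50 and Cyp2c55, all among the 6 lower, also belong to the Cyp2c cluster described next, so the lists overlap. Cyp2b10, the classic CAR target, had 798, 383, 805 and 131 in the WTMM libraries and 2187, 3989.5, 2342 and 1633 in the WTPP libraries (log2 fold change -2.50 ± 0.50, adjusted p = 0.0145), and its call was lost without WTPP 2 and 3 together (adjusted p = 0.0737). Cyp2c55, an arachidonic acid epoxygenase, had 24.6, 13.2, 31.8 and 3.94 in the WTMM libraries and 275, 335, 166 and 203 in the WTPP libraries (log2 fold change -3.93 ± 0.54, adjusted p = 0.00148). Cyp2c50 had 14062, 14349, 13866 and 11395 in the WTMM libraries and 25311, 34201, 19586 and 19529.9 in the WTPP libraries (log2 fold change -0.84 ± 0.16, adjusted p = 0.00944). WT was at the WTPP level for Cyp2b10, 2136 ± 786, and nearer to WTMM for Cyp2c50, 15525 ± 1001. Aldh1a7, an aldehyde dehydrogenase, was lower, at -0.94 ± 0.19 (adjusted p = 0.0142) and lost its call without WTPP 6 and 7 together (adjusted p = 0.0602). Cyp2c29, at -0.92 ± 0.21 (adjusted p = 0.0279), lost it without WTMM 7 or 9, WTPP 2 or 3, or WTPP 2 and 3 together and in 2 other settings (adjusted p = 0.0501 to 0.14).

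The Cyp2c cluster on chromosome 19 split within itself. Of 13 members tested, 3 were higher and 5 were lower in WTMM. The 5 lower ones were Cyp2c29, Cyp2c37, Cyp2c50, Cyp2c55 and Cyp2c68, and the 3 higher ones were Cyp2c38, Cyp2c39 and Cyp2c40. Cyp2c39, a retinoic acid hydroxylase, had 32777, 31454, 26716 and 27910.2 in the WTMM libraries and 259, 381, 17526 and 292 in the WTPP libraries (log2 fold change 5.13 ± 0.97, adjusted p = 0.0111). WTPP 6 stood far above the other 3 WTPP libraries, and its level was under that of every WTMM library. Cyp2c38 had 7222, 5986, 6515 and 5674 in the WTMM libraries and 1185, 1460.2, 4957 and 742 in the WTPP libraries (log2 fold change 1.99 ± 0.40, adjusted p = 0.0152), again with WTPP 6 the highest of WTPP. Without WTPP 6, 2 members were higher and 5 lower. The call of Cyp2c39 was lost without WTPP 2 and 3 together (adjusted p = 0.0794) and that of Cyp2c38 without WTPP 2 and 3 together and in 1 other setting (adjusted p = 0.0516 to 0.0889). Cyp2c37 lost its call without WTMM 7, 8 or 9, WTPP 2 or 3, or WTPP 2 and 3 together and in 2 other settings (adjusted p = 0.0544 to 0.177) and Cyp2c68 without WTMM 6, 8 or 9, WTPP 2 or 3, or WTPP 2 and 3 together and in 1 other setting (adjusted p = 0.0518 to 0.194). Without WTPP 2 and 3 the cluster gave 1 higher and 2 lower members. These genes are close copies whose reads may be split by the counting.

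Lipogenic genes were lower in WTMM where they passed. Of 26 genes of fatty acid and triglyceride synthesis, 0 were higher and 3 were lower in WTMM, with a median of -0.29. Scd1, the desaturase that makes oleate, had 17939.8, 42075, 82669.8 and 5523 in the WTMM libraries and 131699.8, 110793, 130000.5 and 161785 in the WTPP libraries (log2 fold change -2.45 ± 0.60, adjusted p = 0.0357). WTMM 9 was the lowest and WTMM 8 the highest of WTMM, and none reached WTPP. Fasn, fatty acid synthase, had 6209.9, 6338, 10665 and 6432 in the WTMM libraries and 11039.8, 10999, 26207 and 17320.1 in the WTPP libraries (log2 fold change -1.09 ± 0.28, adjusted p = 0.0472), and Gpam, the mitochondrial glycerol-phosphate acyltransferase, had 3175, 2861, 3905 and 2437 in the WTMM libraries and 4932, 4319, 6585 and 5146 in the WTPP libraries (log2 fold change -0.77 ± 0.16, adjusted p = 0.0206). All 3 calls depended on single libraries. Scd1 lost its call without WT 118 or 120, WTMM 6 or 9, WTPP 2, 3, 6 or 7, WTPP 2 and 3 together, or WTPP 6 and 7 together and in 4 other settings (adjusted p = 0.0502 to 0.122). Fasn lost it without WT 118 or 120, WTMM 6, 7 or 9, WTPP 6 or 7, or WTPP 6 and 7 together and in 5 other settings (adjusted p = 0.0569 to 0.231) and Gpam without WTMM 7 or 9, WTPP 6, or WTPP 6 and 7 together (adjusted p = 0.0503 to 0.0946). Over the alternatives the list held 0 to 6 lower members, with 6 when WTPP 2 and 3 were left out and 2 when WTPP 6 and 7 were.

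Cholesterol synthesis genes leaned the same way. Their median log2 fold change was -0.40 over 25 tested genes, and 0 of the 25 had a value above 0, against 49.9% of all tested genes, but 1 passed. It was Pmvk, phosphomevalonate kinase, with 728, 1222, 1280.5 and 936 in the WTMM libraries and 1613, 1473, 2175 and 1743 in the WTPP libraries (log2 fold change -0.77 ± 0.17, adjusted p = 0.025), and its call was lost without WTMM 6 or 9, WTPP 6 or 7, or WTPP 6 and 7 together and in 2 other settings (adjusted p = 0.0501 to 0.12). Genes of this pathway are regulated together, so their common sign is not 25 separate observations. Of 38 genes of fatty acid oxidation, 30 had a positive value, and the median was 0.22. An unadjusted limma p was under 0.05 for 13 of them, against 2687 of all 14473 tested genes. As above, a common sign in such a list is not 38 separate observations. In this list 1 gene was higher and 0 were lower in WTMM. Pex11a, a peroxisome division protein, had 3165, 2782, 3325 and 3612 in the WTMM libraries and 2696, 1790.3, 1785 and 2429 in the WTPP libraries (log2 fold change 0.58 ± 0.14, adjusted p = 0.0332), with its call lost without WTMM 6, 8 or 9, WTPP 3 or 6, or WTPP 6 and 7 together and in 2 other settings (adjusted p = 0.0609 to 0.108).

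In glucose metabolism, Pck1, the gatekeeper enzyme of gluconeogenesis, had 90130.3, 105116, 102131 and 97021 in the WTMM libraries and 52703, 74343, 58335 and 67993 in the WTPP libraries (log2 fold change 0.65 ± 0.14, adjusted p = 0.0218). The groups did not overlap, WT averaged less than both lineages at 45843 ± 6589.8, and the call was lost without WTMM 7, 8 or 9, WTPP 2 or 6, WTPP 2 and 3 together, or WTPP 6 and 7 together and in 1 other setting (adjusted p = 0.0523 to 0.0665). Pck1 was the 1 member of 22 genes of gluconeogenesis and insulin response that passed, a share near the 4.17% over all genes. It also marks periportal hepatocytes, of whose 16 markers it was the 1 that passed. Among 18 pericentral markers the 1 that passed was Cyp2e1, the ethanol-oxidizing cytochrome, with 233969, 247449, 213919.6 and 252912 in the WTMM libraries and 155608, 166386, 163662 and 155506 in the WTPP libraries (log2 fold change 0.56 ± 0.13, adjusted p = 0.0336), and its call was lost without WTMM 6, 7 or 9, WTPP 2, 3, 6 or 7, WTPP 2 and 3 together, or WTPP 6 and 7 together and in 2 other settings (adjusted p = 0.071 to 0.208).

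Some heat shock chaperones were higher in WTMM. Of 20 tested, 6 were higher and 0 were lower in WTMM, and 18 had a positive log2 fold change, with a median of 0.30. Hspa8, the constitutive cytosolic chaperone, had 17264, 11609, 18509 and 17809.7 in the WTMM libraries and 7893, 9216, 7245 and 6456 in the WTPP libraries (log2 fold change 1.07 ± 0.15, adjusted p = 0.00148). Chordc1, a cofactor of HSP90, had 1248, 1239.9, 1428 and 1457 in the WTMM libraries and 984, 974, 832 and 742 in the WTPP libraries (log2 fold change 0.61 ± 0.11, adjusted p = 0.00833). WT levels, 14142 ± 1127 for Hspa8 and 1452 ± 159.8 for Chordc1, were at or near the WTMM level. Dnajb1, a co-chaperone, had 898, 933, 956 and 1476 in the WTMM libraries and 576, 615, 682 and 617 in the WTPP libraries (log2 fold change 0.75 ± 0.13, adjusted p = 0.00869). The other 3 were Hsph1, Hspa1b and Dnaja1. Hsph1, a nucleotide exchange factor, had 2498, 2047, 2856 and 3304 in the WTMM libraries and 1742, 1833, 889 and 774 in the WTPP libraries (log2 fold change 1.11 ± 0.24, adjusted p = 0.0227), with WTPP 6 and 7 under the other libraries. Calls were lost without WTPP 2 and 3 together (adjusted p = 0.0503) for Dnajb1, without WTMM 8 or 9, WTPP 6, or WTPP 6 and 7 together and in 1 other setting (adjusted p = 0.0541 to 0.078) for Hsph1, without WT 116 or 118, WTMM 6, 8 or 9, WTPP 2, 3 or 6, or WTPP 2 and 3 together and in 4 other settings (adjusted p = 0.0504 to 0.14) for Hspa1b and without WT 116 or 118, WTMM 6, 7, 8 or 9, WTPP 2, 3, 6 or 7, WTPP 2 and 3 together, or WTPP 6 and 7 together and in 5 other settings (adjusted p = 0.05 to 0.114) for Dnaja1. Without WTPP 2 and 3 the list had 6 higher members, without WTPP 6 and 7 it had 4, and without WTPP 6 it had 3, the lowest number over the alternatives.

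Heat shock genes are known to share binding sites for HSF1, built from inverted GAA repeats. The promoters of Hspa1b and Chordc1 are shown with GAANNTTC, which reads the same on both strands, in capitals. They come from RefSeq on GRCm38.p6 at chr17:34959189-34959488 on the minus strand and chr9:18292017-18292316 on the plus strand.
Hspa1b: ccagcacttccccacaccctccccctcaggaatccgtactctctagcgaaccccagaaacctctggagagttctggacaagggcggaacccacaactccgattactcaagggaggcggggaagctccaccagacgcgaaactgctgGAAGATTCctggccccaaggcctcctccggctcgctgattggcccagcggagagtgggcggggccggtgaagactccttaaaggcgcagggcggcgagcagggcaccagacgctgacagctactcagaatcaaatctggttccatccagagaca
Chordc1: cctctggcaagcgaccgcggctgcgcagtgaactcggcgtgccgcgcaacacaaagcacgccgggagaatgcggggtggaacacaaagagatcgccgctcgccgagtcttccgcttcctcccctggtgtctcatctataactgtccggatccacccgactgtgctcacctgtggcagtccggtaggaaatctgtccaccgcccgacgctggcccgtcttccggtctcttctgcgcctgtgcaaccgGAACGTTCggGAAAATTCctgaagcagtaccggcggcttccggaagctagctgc
RefSeq promoters matched 15 of the 20 tested chaperone genes, and 5 of the 15 had passed the test. A longer form of the site, with a further repeat, was in the promoter of 4 of the 15. Of these, 2 had passed the test, and 0.66% of all genes with a promoter had that form. Chordc1 had the longer form and Hspa1b did not. GAANNTTC was in the promoter of 9 of the 15, of which 4 had passed the test, and in those of 9.04% of all 27025 genes with a promoter.

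The unfolded protein response list gave 1 call of 27. Dnajb9, a co-chaperone of BiP, had 3182, 2457, 3103 and 2393 in the WTMM libraries and 1837, 2217, 1351 and 1390.4 in the WTPP libraries (log2 fold change 0.73 ± 0.17, adjusted p = 0.0275), and its call was lost without WTMM 6 or 8, WTPP 6 or 7, or WTPP 6 and 7 together and in 1 other setting (adjusted p = 0.0574 to 0.157). That list had 0 to 6 higher members over the alternatives, with 6 when WTPP 2 and 3 were left out.

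Some antigen presentation genes were lower in WTMM. H2-Eb1, the beta chain of the class II molecule I-E, had 25.8, 33.4, 19.3 and 19.7 in the WTMM libraries and 749, 516, 624 and 832 in the WTPP libraries (log2 fold change -4.75 ± 0.30, adjusted p = 4.08e-06). The WTMM libraries were all under 34 and the WTPP libraries all above 500, and WT lay between at 112 ± 59.99. It was the 1 of 10 class II genes that passed. The list's median was -0.56, and 9 of the 10 had a negative value. B cell markers summed to 315 to 492 in WTMM and 485 to 745 in WTPP, with all 12 tested markers negative and none past the test. T and NK cell markers summed to 673 to 784 in WTMM and 761 to 971 in WTPP, with 0 of 22 past the test. Unadjusted p by limma was under 0.05 for 5 of the 12 B cell markers and 2 of the 22 T and NK cell markers. Over all tested genes it was so for 2687 of 14473. The part of B, T and NK cells in the H2-Eb1 difference was not tested.

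Class I genes held more calls. Of 22 tested, 0 were higher and 6 were lower in WTMM, with 0 or 1 higher and 5 to 7 lower over the alternatives. There were 0 higher and 5 lower without WTPP 2 and 3, and 1 higher and 6 lower without WTPP 6 and 7. H2-Q10, a soluble class I molecule made by liver, had 25200.0, 28943, 28377 and 25024 in the WTMM libraries and 40249.6, 48447, 47104 and 46638 in the WTPP libraries (log2 fold change -0.76 ± 0.10, adjusted p = 0.00104). H2-K1, a classical class I chain, had 16138, 14169.7, 15266 and 14014 in the WTMM libraries and 22169, 25090.2, 24940.0 and 23611 in the WTPP libraries (log2 fold change -0.69 ± 0.13, adjusted p = 0.0118). The groups did not overlap for either. H2-Q6 and H2-Q7 were lower, at -1.28 ± 0.19 and -1.51 ± 0.26 (adjusted p = 0.00259 and 0.00718). H2-T23, which encodes the NK cell ligand Qa-1, had 626, 570.2, 583 and 548 in the WTMM libraries and 2868, 3574, 676 and 3480.5 in the WTPP libraries (log2 fold change -1.93 ± 0.39, adjusted p = 0.0152). H2-T22, its neighbour, had 300.1, 219, 275 and 218 in the WTMM libraries and 1047, 1221, 337 and 1115 in the WTPP libraries (log2 fold change -1.73 ± 0.31, adjusted p = 0.0086). For both genes WTPP 6 lay just above the WTMM range and far under the other 3 WTPP libraries. Their calls were lost without WTPP 2 and 3 together and in 1 other setting (adjusted p = 0.054 to 0.105) and without WTPP 2 and 3 together (adjusted p = 0.0612). Class I genes are close copies, and the split of reads among them is uncertain.

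The promoters of H2-Eb1 and H2-K1 are shown with CCAAT and its reverse complement ATTGG, the letters that NF-Y binds, in capitals. They come from RefSeq on GRCm38.p6 at chr17:34305617-34305916 on the plus strand and chr17:34000298-34000597 on the minus strand.
H2-Eb1: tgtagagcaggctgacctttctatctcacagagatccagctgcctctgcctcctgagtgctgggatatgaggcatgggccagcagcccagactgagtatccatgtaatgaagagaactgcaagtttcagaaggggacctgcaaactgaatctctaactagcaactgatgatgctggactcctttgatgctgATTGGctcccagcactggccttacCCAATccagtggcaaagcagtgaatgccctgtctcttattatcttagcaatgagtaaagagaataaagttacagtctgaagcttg
H2-K1: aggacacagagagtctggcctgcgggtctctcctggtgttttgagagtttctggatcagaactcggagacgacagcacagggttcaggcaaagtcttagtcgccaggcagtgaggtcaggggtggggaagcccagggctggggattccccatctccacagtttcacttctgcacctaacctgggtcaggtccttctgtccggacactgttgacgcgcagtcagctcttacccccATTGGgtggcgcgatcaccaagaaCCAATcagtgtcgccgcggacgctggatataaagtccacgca
Those letters were in 13 of the 17 class I list members and 6 of the 7 class II list members that had a RefSeq promoter, against 41.1% of all genes. Of 40 interferon response genes, 0 were higher and 1 was lower in WTMM, and the median was -0.30. Ifit3, an antiviral interferon-induced gene, had 127, 67.8, 114 and 103 in the WTMM libraries and 161, 197, 309 and 195 in the WTPP libraries (log2 fold change -1.06 ± 0.26, adjusted p = 0.035), and its call was lost without WTMM 7, 8 or 9, WTPP 3, 6 or 7, or WTPP 6 and 7 together and in 3 other settings (adjusted p = 0.0526 to 0.149).

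Secreted and iron-related proteins gave few calls. Crp, C-reactive protein, had 13838, 15349, 14074 and 14328 in the WTMM libraries and 10118, 9428, 9325 and 8741 in the WTPP libraries (log2 fold change 0.62 ± 0.09, adjusted p = 0.00172), and the WTPP libraries were all lower than the WTMM libraries. Apcs, serum amyloid P and a related pentraxin, was higher by 0.88 ± 0.20 (adjusted p = 0.025), with its call lost without WTMM 7 or 9, WTPP 3 or 7, WTPP 2 and 3 together, or WTPP 6 and 7 together and in 1 other setting (adjusted p = 0.0526 to 0.0819). Together with Hamp2 these were the 3 of 29 acute phase genes that passed. C8a, a complement chain, was higher by 1.08 ± 0.28 (adjusted p = 0.0431) and lost its call without WT 116 or 120, WTMM 7, 8 or 9, WTPP 2, 6 or 7, or WTPP 6 and 7 together and in 6 other settings (adjusted p = 0.0508 to 0.212). Hjv, hemojuvelin, the coreceptor that drives hepcidin, had 993, 1085, 1112 and 629 in the WTMM libraries and 2814, 2742, 1701 and 1510.0 in the WTPP libraries (log2 fold change -1.18 ± 0.22, adjusted p = 0.00914), and its call was lost without WTPP 2 and 3 together (adjusted p = 0.0531). Hamp2, a hepcidin-like gene, had 1345, 846, 4725 and 253 in the WTMM libraries and 4652, 10149, 8303 and 15172 in the WTPP libraries (log2 fold change -3.02 ± 0.77, adjusted p = 0.044), with WTMM 8 above the lowest WTPP library, and its call was lost without WT 116 or 120, WTMM 6, 7 or 9, WTPP 3, 6 or 7, WTPP 2 and 3 together, or WTPP 6 and 7 together and in 6 other settings (adjusted p = 0.0504 to 0.159).

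Detoxification and amino acid genes added 3 more. Gsta2, a glutathione transferase, and Nqo1, a quinone reductase, were the 2 of 25 NRF2 and glutathione genes that passed, and without WTPP 2 and 3 none did. They were lower, at -1.66 ± 0.39 and -0.62 ± 0.16 on the log2 scale (adjusted p = 0.0325 and 0.0429). Gsta2 lost its call without WTPP 3, 6 or 7, WTPP 2 and 3 together, or WTPP 6 and 7 together and in 3 other settings (adjusted p = 0.0537 to 0.111) and Nqo1 without WT 116 or 120, WTMM 6, 7, 8 or 9, WTPP 2, 6 or 7, WTPP 2 and 3 together, or WTPP 6 and 7 together and in 5 other settings (adjusted p = 0.0511 to 0.131). Gldc, the decarboxylase of the glycine cleavage system, had 3809, 4695, 4228 and 3068 in the WTMM libraries and 10433, 10401, 6203 and 5206 in the WTPP libraries (log2 fold change -0.98 ± 0.23, adjusted p = 0.0298), and its call was lost without WTMM 6, 8 or 9, WTPP 2 or 3, or WTPP 2 and 3 together and in 2 other settings (adjusted p = 0.0523 to 0.174). It was the 1 of 27 urea cycle and amino acid genes that passed.

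Markers of minor cell types that passed were lower in WTMM. Of 10 biliary markers tested, 2 were lower, Sox9 at -1.13 ± 0.28 and Krt8 at -0.40 ± 0.10 (adjusted p = 0.0376 and 0.0472), and all 10 were negative. Sox9 lost its call without WT 120, WTMM 7, 8 or 9, WTPP 2, 3 or 6, or WTPP 2 and 3 together and in 4 other settings (adjusted p = 0.0504 to 0.193) and Krt8 without WT 116, 118 or 120, WTMM 6, 7 or 9, WTPP 2, 3, 6 or 7, WTPP 2 and 3 together, or WTPP 6 and 7 together and in 5 other settings (adjusted p = 0.0547 to 0.174). Of 6 mesothelial markers, Muc16 was lower, at -2.11 ± 0.46 (adjusted p = 0.0226) and lost its call without WTMM 7 or 9, WTPP 2, or WTPP 2 and 3 together (adjusted p = 0.0531 to 0.117). The 19 stellate and matrix markers tested were all negative with a median of -0.29, and none passed. No marker of Kupffer cells, endothelium, neutrophils and monocytes, red cells, pancreas or fat passed either.

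Several programmes gave no call by limma. Members with an unadjusted p under 0.05 numbered 5 of 16 for hepatocyte transcription factors and 3 of 12 for p53 targets. They numbered 3 of 22 for imprinted genes and 3 of 27 for nuclear oxidative phosphorylation. The lipoprotein, glycogen metabolism, DNA methylation, circadian clock and mitochondrially encoded lists each had 1. Over all tested genes the number was 2687 of 14473. Of 52 lists, 22 had no call. Besides 10 cell type lists, the maternal complex of the oocyte and Xist, they were the lipoproteins (21 tested), glycogen metabolism (18), the circadian clock (19), p53 targets (12), hepatocyte transcription factors (16), the DNA methylation machinery (18), imprinted genes (22), nuclear oxidative phosphorylation (27), mitochondrially encoded genes (13) and the cell cycle (26). Hnf4a, a master regulator of hepatocytes, had 19986, 19184, 20837 and 20149 in the WTMM libraries and 16713, 18318, 14629 and 13807 in the WTPP libraries without overlap, yet missed the threshold (log2 fold change 0.35 ± 0.10, adjusted p = 0.0668). Dnmt1, the maintenance DNA methyltransferase, had 319, 289.5, 328 and 295 in the WTMM libraries and 359.9, 351, 346 and 349 in the WTPP libraries (log2 fold change -0.19 ± 0.09, adjusted p = 0.296). In the cell cycle list 25 of 26 genes had a positive value, against 49.9% of all tested genes, with a median of 0.44. None passed the limma test, and 3 had an unadjusted p under 0.05. The list's sums overlapped, at 7478 to 10556 in WTMM and 3984 to 10853 in WTPP. As for cholesterol synthesis, a common sign in such a list is not 26 separate observations. A missed threshold does not show that levels were equal.

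**Figure D4:**
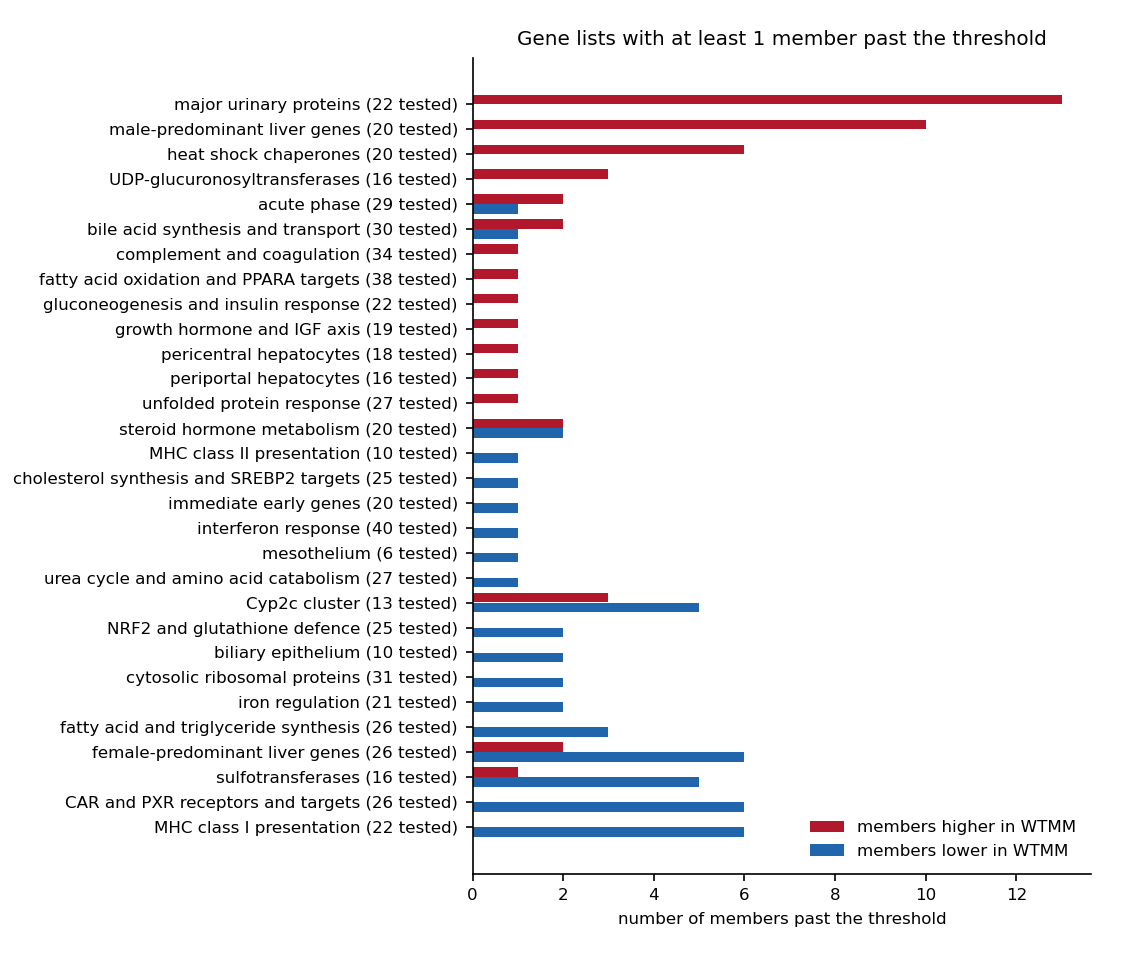
Number of members past the threshold in each gene list that had at least 1, with members higher in WTMM in red and members lower in WTMM in blue, and the number tested after each list's name. Major urinary proteins (13 higher) and male-predominant genes (10 higher) lead on 1 side, and class I presentation, CAR and PXR targets and female-predominant genes (6 lower each) on the other. Some genes belong to more than 1 list.

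Called genes lay together in parts of the genome. On chromosome 19, 45 of 515 tested genes (8.74%) were called and on chromosome 17, 44 of 685 (6.42%), against 1.99% on the X chromosome and 4.17% overall. Among 1191 windows of 2 Mb with a tested gene, 6 held at least 6 calls. These windows were picked after the values were seen, on GRCm38 coordinates. They were chromosome 4 at 60 to 62 Mb with 12 calls among 33 tested genes, chromosome 17 at 24 to 26 Mb with 10 of 69, at 34 to 36 Mb with 9 of 94 and at 36 to 38 Mb with 6 of 20, and chromosome 19 at 38 to 40 Mb with 8 of 18 and at 46 to 48 Mb with 8 of 34. The first is the Mup cluster, those at 34 to 38 Mb hold the histocompatibility complex, and the window at 38 to 40 Mb is the Cyp2c cluster.

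In the chromosome 19 window at 46 to 48 Mb, genes of different families differed close together. Sfxn2, a mitochondrial sideroflexin gene near Cyp17a1, had 626, 693, 619 and 594 in the WTMM libraries and 1874, 1948, 1408 and 1788 in the WTPP libraries (log2 fold change -1.46 ± 0.12, adjusted p = 2.04e-05). As3mt, the arsenite methyltransferase gene on its other side, had 541, 862, 606 and 894 in the WTMM libraries and 1953, 1846, 1419.9 and 1694 in the WTPP libraries (log2 fold change -1.27 ± 0.16, adjusted p = 0.000875). As for Cyp17a1, no library overlapped and WT, at 716 ± 109 for Sfxn2 and 821 ± 69.4 for As3mt, was near WTMM. Within 1 Mb of the Cyp17a1 start, 5 of 31 other tested genes were called, 3 higher and 2 lower in WTMM, against 5 of 92 around H2-Eb1 and 7 of 16 around Cyp2c39.

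**Figure D5:**
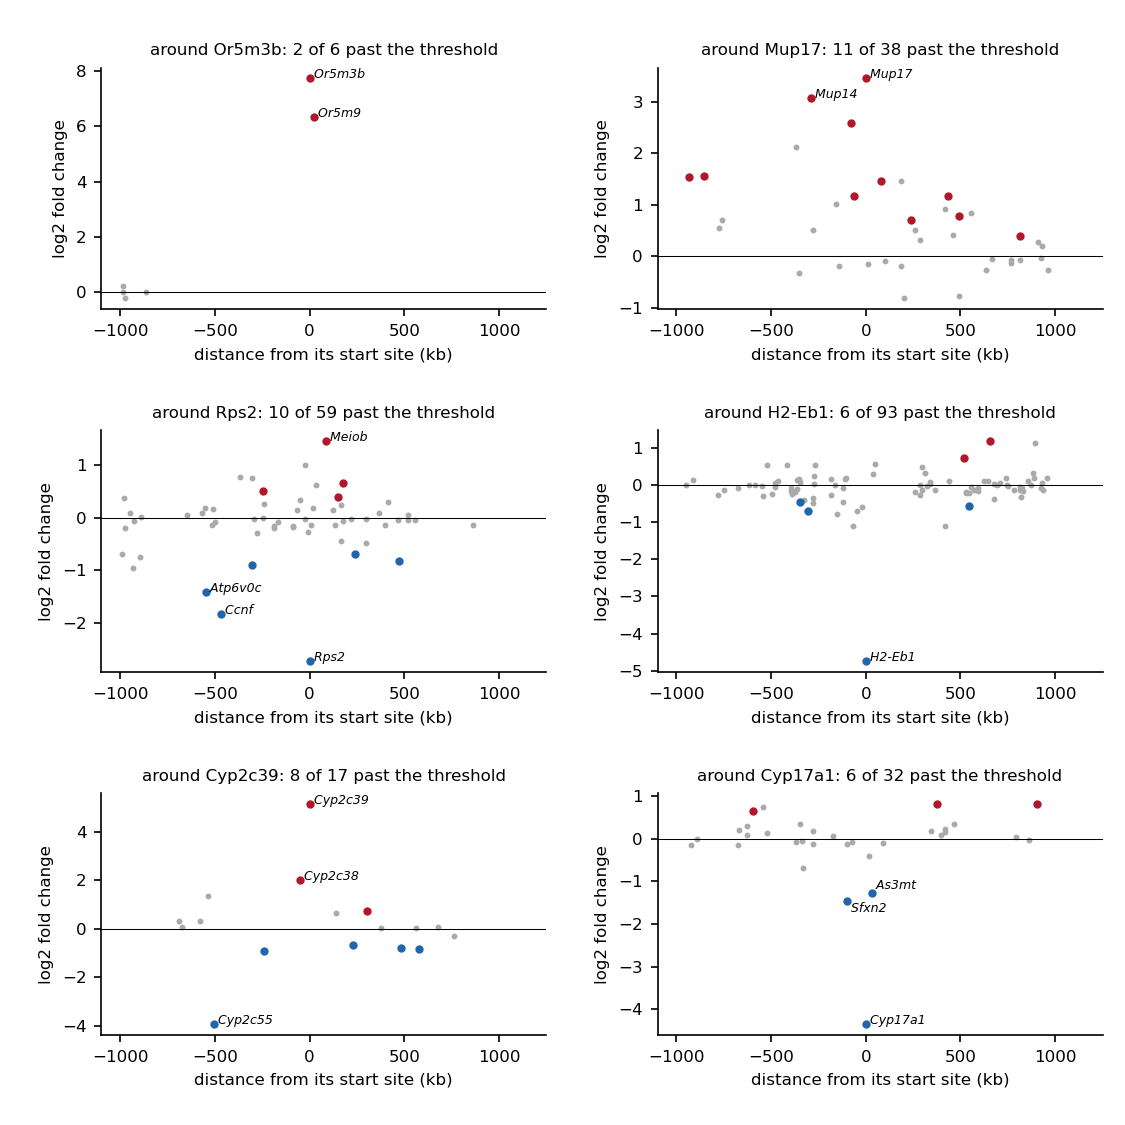
Log2 fold change of WTMM over WTPP of each tested gene within 1 Mb of the start site of 6 named genes, against distance from that start in kilobases, with called genes in red (higher in WTMM) and blue (lower), and with the named gene itself at 0 and in the count above each panel. Mup17 has 10 called neighbours that are all higher in WTMM, whereas Rps2, Cyp2c39 and Cyp17a1 have called neighbours in both directions.

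In the chromosome 17 window at 24 to 26 Mb, 3 genes differed opposite to their processed copies elsewhere. Rps2, a small-subunit ribosomal protein gene, had 551, 494, 511 and 488 in the WTMM libraries and 2286, 4628, 2359 and 5112 in the WTPP libraries (log2 fold change -2.72 ± 0.22, adjusted p = 1.98e-05). WTPP 3 and 7 were about 2 times WTPP 2 and 6, and all 4 were above WTMM. Its copy Rps2-ps10 had 143, 124, 132 and 132 in WTMM and 63.9, 4.42, 62.1 and 5.48 in WTPP, so WTPP 3 and 7 were near 0. Atp6v0c, a proton pump subunit gene, had 170.2, 214, 184 and 135 in WTMM and 326, 652, 356 and 595 in WTPP. Its copy Atp6v0c-ps2 had 481, 493, 462 and 559 in WTMM and 252, 7.08, 205 and 9.14 in WTPP. Rnps1, a splicing factor gene, had 197, 209, 164 and 194 in WTMM and 282, 407, 298 and 477 in WTPP, and its copy Rnps1-ps had 129.9, 116, 127 and 117 in WTMM and 57.8, 6.19, 61 and 2.74 in WTPP. In each of the 3 families WTPP 3 and 7 were farthest from WTMM and WTPP 2 and 6 lay between. The labels give no strain, and whether the WTPP animals carry the same alleles at these loci, at Cyp2c39 or at H2-T23 was not tested.

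Added together, the opposite differences largely cancelled for Atp6v0c. The sum of Atp6v0c and its copy was 652, 707, 646 and 694 in WTMM and 578, 659, 561 and 604 in WTPP. The sum of Rnps1 and its copy was 314 ± 16.4 in WTMM and 398 ± 62.8 in WTPP (SD, n = 4). For Rps2 they did not cancel, with 2116 ± 86.4 in WTMM and 4328 ± 1115 in WTPP over the gene and its 2 tested copies (SD, n = 4). Of 208 pairs of a tested gene and a tested copy named after it, 7 had both members called, 6 of them in opposite directions, and the parent gene of all 7 lies on chromosome 17. Levels of such genes are uncertain, since reads of near-identical copies can be assigned to either. Of the 31 ribosomal protein genes on the list, which does not hold Rpl30, Rps2 and Rps18 passed. Rps18 belongs to these families, at -0.46 ± 0.11 (adjusted p = 0.0364), and lost its call without WTMM 6, 7, 8 or 9, WTPP 3 or 7, WTPP 2 and 3 together, or WTPP 6 and 7 together and in 3 other settings (adjusted p = 0.0547 to 0.104). The calls of the copies were lost in several alternatives, 16 for Atp6v0c-ps2, 13 for Rnps1-ps and 10 for Rps2-ps10.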

How the data were processed

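Liver RNA of 12 female mice, 4 per group, was sequenced. The submitters' processing notes name cutadapt, HISAT2, DESeq2 and GRCm38; the sources used here give no version, gene counter or strand setting. The authors deposited log2 values, log2(normalized count + 0.1). All 12 columns were mapped to samples and none was left over. Undoing the log and the 0.1 left 100% of values under 100 reads within 0.001 of a whole read. The table's values were used as normalized counts, and recovered reads for depth, ratios, floors and voom.

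The scale tested was log2(normalized count + 1), which understates low genes. A single limma fit (version 3.58.1, R 4.3.3) held 3 group means for 12 libraries with a trend in the variance. P-values were adjusted by Benjamini-Hochberg at 0.05. Libraries were grouped by the labels. Alternatives were other pseudocounts, filters, scalings, fits and left-out libraries.

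The members and the 52 lists were chosen with earlier results of these data known, so lists are described by counts and medians. Named genes are the 12 largest in each direction without overlap whose higher group averages 50 or more, the 6 with the smallest p in each direction, up to 5 called members of each list or the 2 with the smallest p where none was called, and Khdc3, with predicted genes and pseudogenes left out of the first 2 rules. The rule also asked for WT values for every named gene, and they are printed for some only. Genes of the clock, region, copy and ribosomal RNA paragraphs, H2-T23 and those of the closing section were chosen after their values were seen. Coordinates are from GENCODE M21 on GRCm38 and promoters from RefSeq on GRCm38.p6. The procedure was tested on simulated data. Depth limits low genes, and intervals and floors cover counting error only.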

Additional observations from a re-analysis of the deposited data

Results flagged for a closer look

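Chance marks about 1 in 20 groups of 4 libraries, which is 11.7 of the 233 groups screened among the named genes. Of these, 14 had a library far from the 3 others of its group by Dixon's ratio, a number near that of chance, and the cause was not tested for any. WTPP 6 and WTMM 9 each gave 4 of them. WTPP 6 was high for Cyp2c39, with 17526 normalized counts beside 259 to 381 in the others, and for Cyp2c38, with 4957 beside 742 to 1460.2. It was also high for Cd163, a macrophage scavenger receptor, with 254 beside 142 to 156, and low for Apoc1, with 81066, beside 98640 to 101770.

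WTMM 9 was high for Dnajb1, with 1476 beside 898 to 956, and for Cidec, a lipid droplet protein gene, with 104 beside 34.7 to 45.5. It was low for Cyp2c50, with 11395 beside 13866 to 14349, and for Gsta2, with 29.6 beside 114 to 124. WTMM 8 was high for Fasn, with 10665 beside 6210 to 6432, and for Serpinb1a, with 182 beside 72.9 to 88.0. WTMM 6 was high for H2-Q6, with 156 beside 107 to 110.3.

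WTPP 2 was high for Muc16, with 41.3 beside 18.8 to 22.1, and low for Oit3, an endothelial marker, with 1028 beside 1112 to 1121. It also held the only WTPP reads of Or5m3b, 3.09 normalized counts beside 0 in the others.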

How the results depend on the processing

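None of the 603 called genes changed direction in any of 26 alternatives. Leaving out 1 library at a time gave 145 to 445 genes higher, 121 to 379 lower and 266 to 824 different, with 125 to 207 different at least 2-fold. The lowest counts came without WTMM 9 and the highest without WT 117. In turn, 358 genes differed without WTMM 6, 355 without WTMM 7, 397 without WTMM 8 and 343 without WTPP 3, and 163 were lower without WTPP 6. The other fits gave 409 (no trend) to 846 (array weights). Voom on the recovered reads called 504 genes, 486 of them among the 603, and the 8 lineage libraries alone 498, 407 of them shared. Without WTPP 2 and 3 the count was 514 and without WTPP 6 and 7 it was 668.

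Numbers 6 and 7 occur in both lineages. Deviations of same-numbered libraries had correlations of -0.15 and -0.066, so the numbers were not taken as pairs. With the number as a replicate block, 276 genes were higher and 219 lower, 495 in all, each among the 603, and 178 differed at least 2-fold. Of 77 named genes past the test, 38 kept their call in every alternative that tested them. Depth limits the genes with few reads, and 4 libraries per group limit all of them.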

Other observations

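Some signalling and transport genes outside the lists also differed, and they are given as values chosen after they were seen. Egfr, the receptor for epidermal growth factor, had 9718, 9251, 6896 and 13677 in the WTMM libraries and 3231, 3023, 2437 and 2927 in the WTPP libraries (log2 fold change 1.73 ± 0.21, adjusted p = 0.000802, limma with Benjamini-Hochberg adjustment). WT averaged 9667 ± 2720.0, at the WTMM level. Lifr, the receptor for leukemia inhibitory factor, had 20538, 33026, 20603 and 28269 in the WTMM libraries and 8884, 9158, 15687 and 9567 in the WTPP libraries (log2 fold change 1.25 ± 0.19, adjusted p = 0.00336), with WT at 13644 ± 1874.

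Kitl, which encodes stem cell factor, had 148, 163, 106 and 163 in the WTMM libraries and 30.9, 39.8, 46.6 and 28.3 in the WTPP libraries (log2 fold change 1.97 ± 0.25, adjusted p = 0.00104). Slc6a9, a glycine transporter gene, had 1097, 1198, 1291 and 1793 in the WTMM libraries and 595, 326, 469 and 417 in the WTPP libraries (log2 fold change 1.58 ± 0.19, adjusted p = 0.000802). Aqp8, a hepatocyte water channel gene, had 1837, 2314, 2697 and 1613 in the WTMM libraries and 4609.8, 4381, 5383 and 6585 in the WTPP libraries (log2 fold change -1.32 ± 0.22, adjusted p = 0.00486). Dio1, the deiodinase that activates thyroid hormone, had 12143, 11680.2, 10217 and 14362 in the WTMM libraries and 7879, 5768, 6967 and 6478 in the WTPP libraries (log2 fold change 0.84 ± 0.15, adjusted p = 0.00735). None of these 6 genes lost its call in an alternative.

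Predicted genes also held wide gaps between the lineages. Gm18562, an unprocessed pseudogene on chromosome 13, had 0, 0.88, 0 and 0 in the WTMM libraries and 192, 161, 93.1 and 81.3 in the WTPP libraries. That is 541 reads in WTPP and 1 in WTMM, a ratio of WTPP over WTMM of 518 with an exact 95% interval of 92.6 to 20500.0 for counting error only. Gm8276, a processed pseudogene on chromosome 3, had 54.9, 122, 149 and 124 in the WTMM libraries and 1.03, 1.77, 5.54 and 1.83 in the WTPP libraries (log2 fold change 5.06 ± 0.50, adjusted p = 0.000131). WT averaged 0.456 ± 0.537 for Gm18562 and 3.57 ± 2.95 for Gm8276, so WT was low for both. Hmga1, an architectural chromatin protein gene on chromosome 17, and Hmga1b, a near-copy on chromosome 11, also went opposite ways, at -0.89 ± 0.21 and 1.22 ± 0.22 on the log2 scale. Hmga1 lost its call without WTMM 7, 8 or 9, WTPP 3 or 7, or WTPP 2 and 3 together and in 1 other setting (adjusted p = 0.0581 to 0.0844). Their reads can be assigned to either gene.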
